A study of Mus musculus with 5 samples.

Results

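Neutrophils sorted from bone marrow 48 h after systemic lipopolysaccharide (LPS) were compared with neutrophils sorted from the marrow of untreated mice, gene by gene. The 2 libraries are part of a series of 5 RNA-seq libraries of marrow neutrophils and Ly6Chi monocytes. All mice were C57BL/6 aged 7 weeks with the genotype +/Ym1Venus, so that 1 allele of the Ym1 gene carries the fluorescent protein Venus in treated and untreated animals alike. The LPS group received 100 µg of LPS per mouse intravenously, and the naive group had no treatment. In both groups neutrophils were sorted as Ly6G+ cells, without a Venus gate, with 1 library per condition. The number of mice behind each library is unknown here. Of 23234 gene symbols in each library, 9513 were compared. These reached an FPKM of 1 in at least 1 of both libraries. FPKM is the number of fragments of a gene, scaled by transcript length and by the mapped fragments of the library. Symbols of short RNA genes (Mir, Snor and Scarna) and genes that 1 of the libraries lists at 0 were left out.

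Neutrophils are made in the marrow from granulocyte progenitors. The proteins of their granules are made in order, with the azurophil granule proteases and myeloperoxidase first, the specific granule proteins such as lactoferrin next, and gelatinase and the surface receptors of the secretory vesicles last. Proliferation ends before the specific granules are complete, and mature cells wait in the marrow, held by the chemokine receptor CXCR4, until CXCR2 ligands and G-CSF call them into the blood. LPS is sensed by TLR4 with CD14 and MD-2, and systemic LPS empties the marrow of mature neutrophils and sets off their renewed production.

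The label was checked against marker genes. S100a8 and S100a9, the subunits of calprotectin, together held 27.7% of all FPKM after LPS and 30% in the naive library, against 0.172% to 2.39% in the monocyte libraries. Retnlg, a resistin-like gene of mature neutrophils, had an FPKM of 5157 after LPS and 12795 in naive neutrophils, against 10.6 to 13.9 in the 3 monocyte libraries. The FPKM summed over 15 neutrophil identity genes was 307648 after LPS and 312537 in naive neutrophils. Ly6g, the gene of the sorted antigen, is not among the symbols analysed.

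Across all genes the libraries were similar, and 65.4% of the genes compared were less than 1.5-fold apart. Values are differences of log2(FPKM + 1), LPS minus naive, on which scale the change of low genes is understated. At least 2-fold higher after LPS on this scale were 827 genes, which is 8.69% of those compared, and at least 2-fold lower were 480 genes, which is 5.05%. These shares are the background for every list count below. The median over all genes was 0.07. Scaling moved this balance. Of the genes past 2-fold 63.3% were higher after LPS, against 57% with median-of-ratios scaling, 51.7% on the TPM scale and 42% as TPM without the 50 most abundant genes, where the median over all genes was -0.00, -0.05 and -0.14. Of 716 list genes compared, 14 that were higher came within 2-fold with median-of-ratios scaling and 4 that were within 2-fold became lower. With a single library for each condition there is no test, and each difference describes these libraries without a replicate check. The share of higher genes was larger among abundant genes. It was 6.15% of 4488 genes with an FPKM of 1 to 10 in the higher library, 10% of 4190 genes from 10 to 100, 15% of 761 genes from 100 to 1000, and 24.3% of 74 genes above that. The share of lower genes lay between 4.05% and 5.35% in every band. From the steps between the lowest values, 1 fragment was worth about 0.131 FPKM in a transcript of 1 kb after LPS and 0.11 in the naive library. For a 2 kb transcript, an FPKM of 10 then stands for about 153 and 182 fragments, with 95% Poisson intervals of 8.47 to 11.7 and 8.59 to 11.5, and an FPKM of 1 stands for 15 and 18 fragments. These intervals are rough and cover counting error alone. Just above the threshold lay 137 genes with a difference of 1.0 to 1.1, and just below it 187 genes with 0.9 to 1.0. On the other side 108 genes lay between -1.1 and -1.0 and 133 between -1.0 and -0.9. In a bulk library, more cells of one stage and more RNA per cell cannot be told apart.

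**Figure D1:**
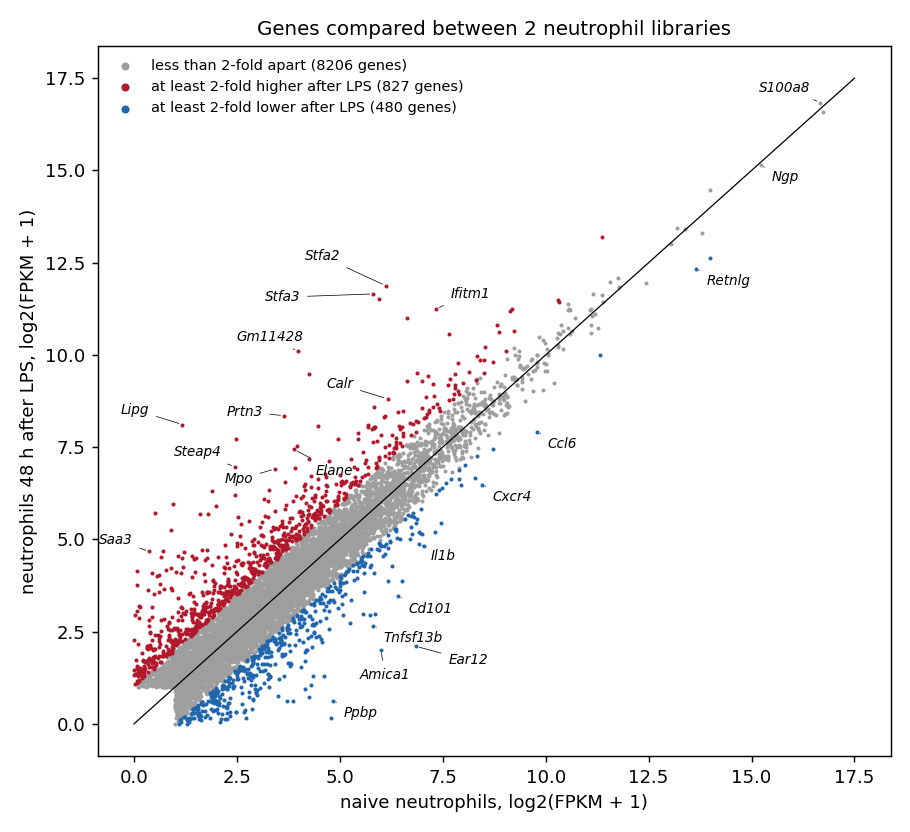
Expression of the 9513 genes compared, with log2(FPKM + 1) in naive neutrophils on the horizontal axis and in neutrophils after LPS on the vertical axis, 1 point per gene and 1 library per condition. The 827 red genes lie at least 2-fold above and the 480 blue genes at least 2-fold below the line of equal values, and the stefin genes Stfa2 and Stfa3, at 3767 and 3221 after LPS, stand apart.

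Among the genes with the largest increase were secreted and surface proteins. Lipg, which encodes endothelial lipase, had an FPKM of 276 after LPS and 1.26 in naive neutrophils, and this difference of 6.94 was the largest of all genes with an FPKM of at least 10. Gm11428, which encodes a small secreted protein with a WAP domain (Wfdc17), had 1094 against 14.8. Ggt1, the gamma-glutamyl transferase that breaks down extracellular glutathione, had 211 against 4.59. These 3 genes were thus low in naive neutrophils and above 200 FPKM after LPS. Fam20c, a kinase of secreted proteins in the Golgi, had 51.6 against 0.42, Ecm1, an extracellular matrix protein, had 37.1 against 0.87, and Cd38, a surface NAD glycohydrolase, had 79.2 against 2.70. Of the 15 largest increases 5 were stefin genes, and these, Prtn3, Steap4 and Saa3 are described with their groups. Mrpl52, a protein of the mitochondrial ribosome, had 61.8 against 0.94, and the value that stood out was the naive one, as the 3 monocyte libraries had 110.3 to 130.4 and the LPS neutrophils 61.8.

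The 15 largest decreases included 4 ribonuclease genes of 1 family. Ear12, a ribonuclease gene of the eosinophil-associated family, had 3.30 after LPS and 114 in naive neutrophils, and its neighbours Ear1, Ear2 and Ear10 were lower as well. As these genes are near-identical and may share reads, they were also added up. The 5 Ear genes measured summed to 12.7 after LPS and 208 in naive neutrophils, which is 16.4-fold lower. Amica1, an adhesion receptor of leukocytes also called JAML, had 3.04 against 63.03. Cd101, a surface glycoprotein of late neutrophils, had 9.998 against 83.7. Tnfsf13b, the B cell survival factor BAFF, had 5.29 against 54.7. Fmnl2, a formin that extends actin filaments, had 1.46 against 23.6, Thbs1, the matrix protein thrombospondin 1, had 6.73 against 52.01, and Gabbr1, a subunit of the GABA-B receptor, had 0.54 against 13.6. Ppbp and Pf4, chemokines stored by platelets, had 0.54 against 27.3 and 0.92 against 16.9. Dmwd, at 0.66 against 17.9, Gm10684 and Pisd-ps3, a pseudogene at 0.12 against 26.6, were also among the 15.

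Granule genes differed by granule class. Of 11 azurophil granule genes compared, 6 were at least 2-fold higher after LPS and 0 lower, with a median difference of 3.31, against 0.07 over all genes. The list was split, as the 6 genes had differences of 3.31 or more and the other 5 were below 1, and the median was 2.14 without the filter on low values. Prtn3, which encodes proteinase 3, had an FPKM of 326 after LPS and 11.5 in naive neutrophils, a 28.3-fold difference. Elane, the neutrophil elastase gene, had 173 against 13.7, Mpo, the myeloperoxidase gene, 119 against 9.77, and Ctsg, the cathepsin G gene, 59.01 against 2.95. Ctsc, the protease that activates these serine proteases, had 72.9 against 4.50, a 16.2-fold difference, and Cst7, an inhibitor of lysosomal proteases, had 17.7 against 0.88. The 6 genes thus lay between 12.2-fold and 28.3-fold higher. The other 5 did not reach 2-fold. They were Serpinb1a, an inhibitor of elastase and proteinase 3, at 519 against 266, the minor protease gene Prss57 at 17.4 against 8.98, the membrane protein gene Cd63 at 328 against 326, the proteoglycan gene Srgn at 585 against 629, and Igsf6 at 177 against 327.

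Promoter sequence of 3 of these protease genes is shown because all 3 were higher. It is taken from RefSeq (GRCm38.p6, which is not the build mm9 of the files) and covers up to 250 bases before the annotated start, without letters that a GENCODE transcript covers. Capitals mark GAGGAA, the letters searched for the myeloid factor PU.1, on either strand. Elane lies at chr10:79886062-79886246 on the plus strand, Prtn3 beside it at chr10:79879417-79879613 on the plus strand and Ctsg at chr14:56102575-56102824 on the minus strand.
Elane: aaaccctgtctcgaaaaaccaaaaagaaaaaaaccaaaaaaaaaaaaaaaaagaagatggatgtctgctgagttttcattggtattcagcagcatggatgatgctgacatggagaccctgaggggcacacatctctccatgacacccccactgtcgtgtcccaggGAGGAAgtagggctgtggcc
Prtn3: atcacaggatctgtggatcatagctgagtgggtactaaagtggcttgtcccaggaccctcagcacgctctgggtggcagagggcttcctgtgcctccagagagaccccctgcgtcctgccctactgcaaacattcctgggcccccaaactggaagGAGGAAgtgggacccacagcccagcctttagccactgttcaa
Ctsg: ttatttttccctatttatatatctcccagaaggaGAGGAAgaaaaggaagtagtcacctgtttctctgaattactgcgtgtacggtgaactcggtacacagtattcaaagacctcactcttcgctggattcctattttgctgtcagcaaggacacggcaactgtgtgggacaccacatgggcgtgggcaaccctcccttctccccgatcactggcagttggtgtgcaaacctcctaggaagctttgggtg
Counted from the start, the letters begin at -85 in Elane, -95 in Prtn3 and -216 in Ctsg. They were found in 7 of 10 promoters of 9 azurophil genes, which is 70%, and in 23.3% of 32851 promoters of all genes. Of the 7 genes, Cd63 and Igsf6 were not 2-fold higher. The letters were about as frequent in other neutrophil lists without 2-fold higher genes. They were in 60% of 10 specific granule promoters and in 73.3% of 15 neutrophil identity promoters. The letters TTGCNNAA, searched for the C/EBP factors, were in 0 of the 10 azurophil promoters and in 9.56% of all.

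The genes of the later granules did not follow. Of 11 specific granule genes, 0 were 2-fold higher and 0 lower, with a median of 0.26. Ltf, the lactoferrin gene, had an FPKM of 11041 after LPS and 9308 in naive neutrophils, Ngp, the neutrophilic granule protein gene, had 36159 against 38174, and Camp, the cathelicidin gene, had 10039 against 14330. Lcn2, the gene of lipocalin 2, which takes iron from bacteria, had 22622 against 16224, and Olfm4, olfactomedin 4, had the largest difference of the list, 0.89, at 403 against 217. Of 10 gelatinase granule and secretory vesicle genes, 1 was higher and 0 lower, where 8.69% and 5.05% of all genes were. The median of the list was near 0, with a sign that depended on the scaling. Mmp9, the gelatinase B gene, had 2209 against 2349, and Itgam, the CD11b integrin, 678 against 691. The gene that was higher is Hpse, the heparan sulfate cleaving enzyme heparanase, at 15.95 against 1.23. Chi3l3, the symbol of Ym1 in these files, had 1712 after LPS and 1484 in naive neutrophils, and its close relative Chi3l4, with which it may share reads, 239.5 against 209.

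**Figure D2:**
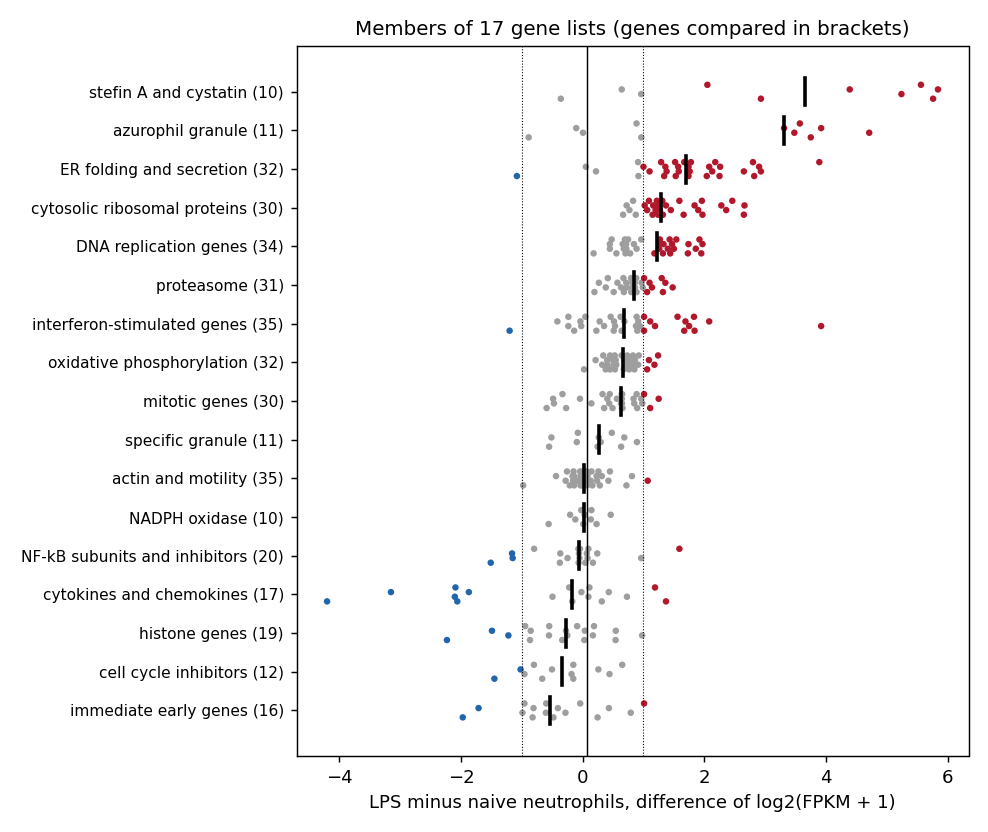
Differences of log2(FPKM + 1), LPS minus naive neutrophils, for the members of 17 gene lists, 1 point per gene, red for at least 2-fold higher and blue for at least 2-fold lower. The thick bars are list medians, which run from 3.66 for the stefin and cystatin genes to -0.54 for the immediate early genes, the thin line is the median of all genes at 0.07, and the dotted lines mark 2-fold.

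The stefin and cystatin genes had the largest list median, which was lower than that of the azurophil genes on the TPM scales, at 2.81 and, without the 50 most abundant genes, Stfa2 and Stfa3 among them, 1.38. Stefins inhibit cysteine proteases such as cathepsins inside cells, and the mouse has a cluster of near-identical copies on chromosome 16. Among the 10 stefin and cystatin genes compared, not all of this cluster, the median was 3.66, with 7 higher and 0 lower. Stfa2 had an FPKM of 3767 after LPS and 68.3 in naive neutrophils, Stfa3 had 3221 against 55.2, and BC100530 had 2941 against 61.3. Stfa1 had 2066 against 97.4, Gm5483 had 1531 against 200, BC117090 had 714 against 17.9, and Stfa2l1, the most abundant member in naive neutrophils, had 2336 against 564. The copies may share reads, so that their single values are uncertain. Summed over the 9 genes of the cluster, FPKM was 16600 after LPS and 1077 in naive neutrophils, a 15.4-fold difference. The same sum was 19.95 in Venus- monocytes after LPS, 10.6 in naive monocytes and 346 in Venus+ monocytes. Outside the cluster differences were smaller, with Cstb, the stefin B gene, at 79.8 against 40.4 and Cst3, the secreted inhibitor cystatin C, at 336 against 432.

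Promoters of 3 stefin genes are printed to show how alike the copies are. Stfa2 lies at chr16:36408458-36408613 on the minus strand, Stfa2l1 at chr16:36156561-36156810 on the plus strand and Stfa3 at chr16:36455393-36455642 on the minus strand (GRCm38.p6, from RefSeq). Capitals mark GAGGAA or its reverse complement TTCCTC.
Stfa2: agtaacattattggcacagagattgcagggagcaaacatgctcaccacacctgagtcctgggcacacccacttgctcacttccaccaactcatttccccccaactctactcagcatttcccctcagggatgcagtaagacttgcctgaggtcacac
Stfa2l1: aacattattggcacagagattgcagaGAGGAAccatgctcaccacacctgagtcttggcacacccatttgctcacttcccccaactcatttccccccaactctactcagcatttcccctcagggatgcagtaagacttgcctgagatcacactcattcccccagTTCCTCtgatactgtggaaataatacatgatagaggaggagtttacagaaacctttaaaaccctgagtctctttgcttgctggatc
Stfa3: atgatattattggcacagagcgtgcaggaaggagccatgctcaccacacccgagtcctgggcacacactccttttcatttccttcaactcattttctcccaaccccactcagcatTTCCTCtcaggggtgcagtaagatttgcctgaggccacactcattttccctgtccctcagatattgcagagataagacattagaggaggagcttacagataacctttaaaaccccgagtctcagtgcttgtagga
Over their 250 bases, Stfa2 and Stfa2l1 were identical at 92.3% of 246 aligned bases, Stfa2 and Stfa3 at 83.3% of 245, and Stfa2l1 and Stfa3 at 84% of 244. The letters were found in 6 of 7 stefin and cystatin promoters, which is 85.7%. In Stfa2 the match is not in the letters printed, since 94 bases that a GENCODE transcript covers were left out. Promoters this alike are not separate observations of a motif.

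Other abundant secreted and calcium-binding proteins were mixed. Of 8 S100 genes, 2 were higher and 0 lower. S100a6 had an FPKM of 2777 after LPS and 1270 in naive neutrophils, and S100a1 had 71.2 against 14.3. S100a8 at 117292 against 104312 and S100a9 at 97712 against 108921 differed by 0.17 and -0.16. Of 6 resistin-like and WAP proteins, 1 was higher, Gm11428, and 2 were lower, Retnlg, 2.48-fold, and Retnla at 2.1 against 7.6. The secretory leukocyte protease inhibitor gene Slpi had 341 against 533, and 1100001G20Rik had 3217 against 2290.

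**Figure D3:**
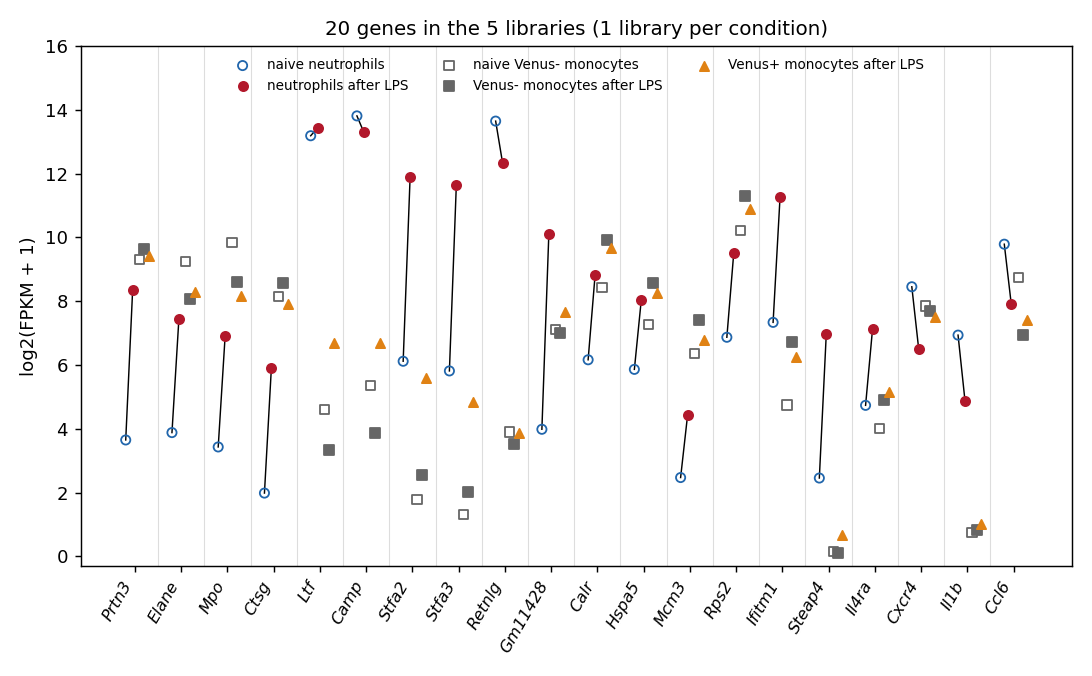
log2(FPKM + 1) of 20 genes in the 5 libraries, with 1 point per library and a line joining naive neutrophils to neutrophils after LPS. Azurophil genes such as Prtn3 (11.5 to 326) lie nearer the monocyte levels after LPS, Ltf and Camp stay near the top in both neutrophil libraries, and Stfa2 (68.3 to 3767) reaches a level far above the monocytes.

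Genes for protein folding and export in the endoplasmic reticulum (ER) were higher nearly throughout. Of 32 compared, 27 were at least 2-fold higher and 1 was lower, with a median of 1.70. Chaperones came first. Hspa5, the lumenal HSP70 chaperone BiP, had an FPKM of 263 after LPS and 57.1 in naive neutrophils, Hsp90b1, the lumenal HSP90, had 204 against 58.7, and Calr, the glycoprotein chaperone calreticulin, had 447 against 70.6, a 6.34-fold difference. The cofactors Sdf2l1, at 50.9 against 2.50, Hyou1, at 41.8 against 5.06, and Manf, at 67.7 against 7.99, had larger differences of 3.89, 2.82 and 2.93. The disulfide isomerases Pdia3, Pdia4, Pdia6 and P4hb were 4.85-fold, 8.4-fold, 8-fold and 4.82-fold higher. The list also held genes of the translocon, the signal peptidase and the oligosaccharyl transferase. Sec61a1, the channel subunit, had 86.7 against 24.9, Spcs2 had 69.5 against 20.2 and Rpn2 had 68.8 against 15.6. Xbp1, the transcription factor of the unfolded protein response, had 142 against 48.5, while Atf4, the factor of the integrated stress response, had 86.1 against 73.8 and its target Ddit3, the CHOP gene, was the 1 lower gene at 11.1 against 24.7. The chaperone and Xbp1 values were thus higher and those of the Atf4 and Ddit3 pair were not.

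Promoters of 3 ER genes are printed because they hold an ER stress element, a CCAAT box followed after 9 bases by CCACG, on either strand, with both parts in capitals. This element was searched for after the values had been seen. Pdia6 lies at chr12:17266339-17266544 on the plus strand, Creld2, a disulfide isomerase-like gene, at chr15:88819396-88819645 on the plus strand and Calr at chr8:84846935-84847181 on the minus strand (GRCm38.p6, from RefSeq).
Pdia6: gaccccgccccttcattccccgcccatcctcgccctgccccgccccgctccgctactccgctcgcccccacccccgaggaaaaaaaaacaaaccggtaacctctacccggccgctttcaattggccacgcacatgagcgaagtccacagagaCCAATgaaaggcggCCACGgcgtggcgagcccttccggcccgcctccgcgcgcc
Creld2: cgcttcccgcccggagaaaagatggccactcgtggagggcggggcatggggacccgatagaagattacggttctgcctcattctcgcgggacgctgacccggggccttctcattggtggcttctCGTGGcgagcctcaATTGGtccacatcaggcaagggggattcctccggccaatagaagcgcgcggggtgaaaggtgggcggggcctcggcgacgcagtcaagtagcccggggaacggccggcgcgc
Calr: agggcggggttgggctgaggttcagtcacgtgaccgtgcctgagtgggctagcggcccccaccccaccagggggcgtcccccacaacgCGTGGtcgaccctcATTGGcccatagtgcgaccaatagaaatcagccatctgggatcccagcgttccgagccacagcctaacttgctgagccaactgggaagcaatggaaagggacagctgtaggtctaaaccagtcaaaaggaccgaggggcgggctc
The element was found in 7 of 27 promoters of 26 ER genes, which is 25.9%, and in 37 of 32851 promoters of all genes, which is 0.113%. The 7 genes were Calr, Canx, Creld2, Dnajc3, Hsp90b1, Hspa5 and Pdia6, and their differences ran from 1.29 for Dnajc3 to 2.90 for Pdia6. Genes without the element were higher as well, such as Pdia4 and Sdf2l1, the latter with a difference of 3.89. A CCAAT box alone, which is part of the element, was in 77.8% of the ER gene promoters and in 33.8% of all.

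Ribosomal protein genes were mostly higher, and proteasome genes mostly within 2-fold. Of 31 proteasome subunit genes, 8 were higher, 23 within 2-fold and 0 lower, and all 31 had a difference above 0, with a median of 0.85. Psmd7, a lid subunit, had an FPKM of 29.4 after LPS and 9.91 in naive neutrophils, and Psmb3, a core subunit, had 133 against 111. Of 30 cytosolic ribosomal protein genes, 25 were higher and 0 lower. Their median was 1.29 and their range 0.67 to 2.66. Rps2 had 735 against 116 and Rpsa had 623 against 98.1, both 6.35-fold higher, whereas Rps9, the most abundant of the list, had 1442 against 909. These genes have many processed pseudogenes, so their values may share reads with copies. Both neutrophil libraries lay below the monocytes, where Rps2 had 1190 to 2510. Of 22 ribosome biogenesis genes 18 were within 2-fold and 3 were higher, namely Fbl, the nucleolar methyltransferase fibrillarin, at 8.90 against 2.36, Npm1, nucleophosmin, at 41.7 against 16.7, and Nhp2 at 12.2 against 5.15. Polr1a, the large subunit of RNA polymerase I, was the 1 lower gene at 8.23 against 24.2.

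Among cell cycle genes, those of DNA replication had the larger median. All 34 replication genes compared had a difference above 0, and 18 were at least 2-fold higher, with a median of 1.22. Mcm3 had an FPKM of 20.3 after LPS and 4.54 in naive neutrophils, Mcm2 had 17.8 against 3.97 and Mcm5 had 38.4 against 9.89, all subunits of the replicative helicase. Pcna, the sliding clamp of the polymerases, had 92.2 against 33.5, and Rrm2, a subunit of ribonucleotide reductase, had 62.7 against 22.01. Among 30 mitotic genes the median was 0.64, and 3 were higher and 0 lower, with the share of higher genes near the 8.69% of all genes. The 3 were Ccnb1, cyclin B1, at 32.7 against 13.2, the kinase gene Plk1 at 38.4 against 17.3 and the kinesin gene Kif20a at 21.3 against 10.06. With median-of-ratios scaling Kif20a came within 2-fold, at a difference of 0.932. Mki67, the proliferation marker, had 47.9 against 35.9, and Top2a, topoisomerase II, had 52.2 against 33.1. The lists were not tested against each other, and proliferation genes were thus measured in both libraries.

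Inhibitors of the cell cycle and histone genes had medians below 0. Of 12 inhibitor genes, 2 were lower and 0 higher, with a median of -0.34. Btg1, an antiproliferative gene of resting cells, had an FPKM of 31.3 after LPS and 87.02 in naive neutrophils, Gadd45b had 13.2 against 27.8, and Cdkn1b, the p27 gene, had 41.2 against 72.4. Of 19 histone genes, 3 were lower and 0 higher, namely Hist2h2aa1, at 3.23 against 18.9, Hist1h2bc, at 16.1 against 46.9, and Hist1h1c, the linker histone H1.2, at 18.8 against 45.3. Histone mRNAs mostly lack a poly(A) tail, and whether poly(A) RNA was selected is unknown here.

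Of 19 transcription factors of granulocyte development compared, 1 was higher and 1 lower, where 8.69% and 5.05% of all genes were. Cebpb was higher, at an FPKM of 124 after LPS against 39.9, and Cebpa was lower, at 3.97 against 9.67. C/EBPα drives the early steps of granulocyte development and C/EBPβ its acceleration in infection. Cebpe, which is needed for the specific granules, had 170.1 against 215, Cebpd had 71.8 against 128, Gfi1 had 6.08 against 8.79, and Sfpi1, the PU.1 gene, had 563 against 505. Of 14 stem and progenitor genes 5 could be compared, of which Ms4a3, a gene of granulocyte-monocyte progenitors and early granulocytes, was higher at 144 against 18.2, and Kit, the stem cell factor receptor, was lower at 2.57 against 7.005. The other 3 were within 2-fold, namely the transcription factor gene Erg at 17.6 against 21.7, Igfbp4 at 12.04 against 13.9 and Hmgb3 at 15.3 against 13.4. Cd34, at 0.54 against 0.26, and Flt3, at 0.03 against 0.14, were below the minimum and were not compared.

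Energy metabolism genes differed mostly by less than 2-fold. All 32 genes of oxidative phosphorylation had a difference of 0.02 or more, 4 were at least 2-fold higher and the median was 0.66. Cycs, cytochrome c, had an FPKM of 27.7 after LPS and 11.2 in naive neutrophils, and Atp5a1, a subunit of ATP synthase, had 165 against 77.05. Of 22 genes of glycolysis and glycogen 17 had a difference above 0 and 2 were higher, near the 8.69% of all genes. These were Slc2a1, the glucose transporter GLUT1, at 46.6 against 12.9, and Pfkl, a phosphofructokinase, at 12.8 against 5.32. Ldha, lactate dehydrogenase A, had 669 against 336 and Gapdh had 2676 against 1497, while Slc2a3, the transporter GLUT3, had 212 against 243.

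Genes of LPS sensing and of NF-kB were mostly within 2-fold at 48 h. Of 20 sensing genes, 2 were higher and 0 lower, with the share of higher genes near the 8.69% of all genes. Tlr1, which pairs with TLR2 to bind lipopeptides, had an FPKM of 21.6 after LPS and 1.25 in naive neutrophils, and Cd14, the LPS co-receptor, had 22.1 against 3.11. Tlr4 itself had 14.7 against 12.6, Ly96, which encodes MD-2, had 19.1 against 16.2, and the adaptor gene Myd88 had 163 against 92.04. Among 20 NF-kB genes, Bcl3, an atypical inhibitor that also activates targets, was higher at 70.2 against 22.7. Lower were 3 genes, Tnfaip3, the feedback inhibitor A20, at 1.23 against 5.35, Nfkbie at 3.83 against 9.83 and Nfkbid at 8.37 against 19.8. Nfkbia, the inhibitor IκBα, had 98.1 against 91.8. Of 16 immediate early genes 1 was higher and 2 lower, where 8.69% and 5.05% of all genes were. The median of the 16 was -0.54. Dusp6, a phosphatase of the ERK kinases, had 18.5 against 75.4, Fos had 2 against 8.83, and Jun had 5.66 against 2.30. The difference of Jun, the 1 higher gene, was 1.01 and is 0.941 with median-of-ratios scaling.

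Of 17 cytokine genes compared, 6 were lower and 2 higher. Il1b had an FPKM of 28.4 after LPS and 121 in naive neutrophils, and its natural antagonist Il1rn had 36 against 157, a similar fold. Ccl6, a chemokine of resting myeloid cells, had 240.2 against 881, and Il15, a growth factor of NK and T cells, had 4.08 against 20.6. The other lower genes were Tnfsf13b and Ppbp. Tnf, at 26.04 against 24.02, and Osm, at 26.3 against 21, were close to equal. The higher genes were low in both libraries, with Cxcl2 at 1.88 against 0.11 and Ccl9 at 3.43 against 0.94, and Il6, Cxcl1 and Il12b were listed at 0 in both.

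Of 24 cytokine receptor genes, 8 were higher and 1 lower, and the sign of the median depended on the scaling. The chain shared by the receptors for IL-4 and IL-13, Il4ra, had an FPKM of 138 after LPS and 25.6 in naive neutrophils, and its partner Il13ra1 had 40.5 against 10.7. Csf2rb, the common chain of the receptors for GM-CSF, IL-3 and IL-5, had 227 against 76.3 and its close copy Csf2rb2, which may share reads with it, had 80.1 against 17. Il1r2, the decoy receptor of IL-1, had 265 against 90.1, and Ifngr1, the interferon-gamma receptor, had 134 against 47.9. Il3ra and Il6st were the other higher genes. Csf3r, the G-CSF receptor, had 237 against 464, a difference of -0.97 that is -1.05 with median-of-ratios scaling, and Csf1r, the M-CSF receptor, was lower at 10.5 against 33.9.

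Of 20 genes for retention in and exit from the marrow, 3 were higher and 2 lower, where 8.69% and 5.05% of all genes were. Cxcr4, the receptor that holds neutrophils in the marrow, had an FPKM of 88.6 after LPS and 349 in naive neutrophils, a 3.94-fold difference. Cxcr2, the receptor for the chemokines that release them, had 675 against 598. The integrin gene Itgax, CD11c, was lower at 0.80 against 5.22. Higher were Cd47, a signal against phagocytosis, at 198 against 81.4, the adhesion gene Pecam1 at 8.51 against 3.23 and Cxcr1 at 7.57 against 3.09. The difference of Cxcr1, 1.07, is 0.993 with median-of-ratios scaling. Of 24 chemoattractant and pattern receptor genes, 4 were lower and 1 higher, beside the same shares of all genes. The lower ones included the C-type lectins Clec7a, the beta-glucan receptor dectin 1, at 35.8 against 119.9, and Clec4d at 83.4 against 177, with Treml4 at 2.84 against 16.8. The formyl peptide receptor genes Fpr1, at 288 against 341, and Fpr2, at 656 against 578, were within 2-fold.

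Interferon-stimulated genes were higher in part. Of 35 compared, 12 were at least 2-fold higher and 1 lower, with a median of 0.69. The Ifitm genes, whose proteins block virus entry, were the most abundant of the list. Ifitm1 had an FPKM of 2433 after LPS and 160.3 in naive neutrophils, Ifitm2 had 2447 against 580, Ifitm3 had 1564 against 466, and Ifitm6 had 9374 against 2644. As Ifitm genes may share reads, they were also added up, and the 4 genes summed to 15818 against 3850, a 4.11-fold difference. The guanylate-binding protein gene Gbp2 had 27.4 against 7.81, the GTPase gene Ifi47 had 13.1 against 2.94, the 2-5A synthetase gene Oas1a had 52.5 against 15.9, and the nucleic acid sensor gene Zbp1 had 49.5 against 16.2. Of the other members, Isg15 had 36.2 against 18.8, Rsad2 had 17.4 against 19.3, and Ifit3, the 1 lower gene, had 4.05 against 10.6. Of 17 genes of MHC class I and the immunoproteasome 1 was higher, Pdia3, which is also an ER gene, and H2-K1 had 423 against 243.

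Promoters of Ifitm2 and Oas1a are printed because they hold the letters GAAANNGAA, the core of the interferon-stimulated response element, in capitals where the letters are fixed. Ifitm2 lies at chr7:140955988-140956211 and Oas1a at chr5:120907526-120907775, both on the minus strand (GRCm38.p6, from RefSeq).
Ifitm2: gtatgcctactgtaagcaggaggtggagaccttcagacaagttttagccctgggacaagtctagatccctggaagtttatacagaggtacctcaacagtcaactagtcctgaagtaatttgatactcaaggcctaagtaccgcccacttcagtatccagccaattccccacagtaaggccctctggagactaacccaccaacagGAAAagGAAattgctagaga
Oas1a: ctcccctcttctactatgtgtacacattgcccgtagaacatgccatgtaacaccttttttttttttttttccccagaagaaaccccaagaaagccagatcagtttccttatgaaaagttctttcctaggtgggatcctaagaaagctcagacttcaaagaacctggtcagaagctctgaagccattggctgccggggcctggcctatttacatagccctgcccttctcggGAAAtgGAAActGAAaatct
In Oas1a 2 matches overlap, beginning at -20 and -14 from the start, and in Ifitm2 the match begins at -46. On either strand the letters were in 15 of 35 promoters of 29 interferon-stimulated genes, which is 42.9%, and in 7.13% of all promoters. They were present in genes that differed little, such as Isg15 and Rsad2, and in the lower gene Ifit3.

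Acute-phase genes and genes downstream of STAT3, the factor activated by G-CSF and IL-6, held several of the largest differences. Of 22 compared, 8 were higher and 2 lower, with a median of 0.65. Steap4, a metalloreductase, had an FPKM of 124 after LPS and 4.48 in naive neutrophils, and Saa3, a serum amyloid, had 24.5 against 0.30. Socs3, the feedback inhibitor of STAT3, had 48.9 against 8.10, and Lrg1, a secreted leucine-rich glycoprotein, had 1781 against 447. Pim1, a survival kinase, had 149 against 60.96, Cish had 13.1 against 5.12 and Mt1, a metallothionein, had 11.9 against 0.87. Stat3 itself had 116 against 70.7, and Socs1 had 1.63 against 3.09. The lower genes were Il1rn and Fgl2, a fibrinogen-like protein, at 18.2 against 52.3.

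Among genes of cell death 2 were higher and 2 lower of 26, shares near the 8.69% and 5.05% of all genes. Casp6, an executioner caspase, had an FPKM of 22.5 after LPS and 1.1 in naive neutrophils, and Casp4, the sensor of intracellular LPS also called caspase 11, had 51.5 against 22.3. The lower genes, Pmaip1 (NOXA) at 0.72 against 6.97 and Bmf at 1.01 against 4.30, encode activators of the intrinsic pathway. Mcl1, the main survival protein of neutrophils, had 301 against 241. Of 11 eicosanoid genes 1 was higher and 1 lower, where 8.69% and 5.05% of all genes were. Alox5ap, which presents arachidonic acid to 5-lipoxygenase, was higher at 2898 against 1262, and Alox15 was lower at 0.32 against 3.02. Alox5 had 221 against 217. Of 15 iron and heme genes 3 were higher, namely Steap4, Alas1, the first enzyme of heme synthesis, at 228 against 63, and Blvra, a biliverdin reductase, at 7.45 against 3.05. The difference of Blvra, 1.06, is 0.989 with median-of-ratios scaling. Of 30 lysosomal genes 3 were higher, a share near the 8.69% of all genes. They were the cathepsin genes Ctsl, at 18.2 against 3.56, Ctss, at 44.6 against 11, and Ctsb, at 87.2 against 42.8, whose difference of 1.01 is 0.929 with median-of-ratios scaling. Ctsd, a more abundant cathepsin gene, had 941 against 641 and was within 2-fold.

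Few genes of the effector machinery that mature neutrophils carry reached 2-fold. None of 10 NADPH oxidase genes differed 2-fold, with Cybb, the catalytic subunit, at 647 against 632 and Ncf1 at 1245 against 1264. Nor did any of 5 Fc receptor genes on the log2(FPKM + 1) scale, with Fcer1g at 1596 against 1600. Fcgr1, low in both libraries at 1.68 against 0.37, came nearest with a difference of 0.969, while its FPKM ratio was 4.54. Of 35 actin and motility genes 1 was higher, Vim, the intermediate filament protein vimentin, at 1102 against 525, a difference of 1.07 that is 0.985 with median-of-ratios scaling, and Actb had 10831 against 10641.

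Sums over markers of other cells were mostly lower after LPS. The FPKM of 8 platelet and megakaryocyte genes summed to 57.4 in naive neutrophils and 6.15 after LPS, and 5 of 6 compared were lower. That of 14 eosinophil, basophil and mast cell genes summed to 85.8 and 15.3, with the eosinophil granule gene Prg2 at 3.72 against 0.37 and Epx, the eosinophil peroxidase gene, at 0.12 against a listed 0. For 12 tissue macrophage genes the sums were 147 and 88.2, against 55.5 to 132.8 in the monocyte libraries. Most of this was Slc40a1, the iron exporter ferroportin, at 110.2 and 68.5, and 4 of 10 were lower, including C1qa, C1qb and C1qc, the complement C1q chains, which had 5.25 to 6.47 in naive neutrophils and 1.38 to 1.75 after LPS. Erythroid genes summed to 26.1 and 7.40. Dendritic cell genes summed to 7.16 and 13.7, most of it Bst2, which is also an interferon-stimulated gene, at 5.41 and 12.8. B cell genes summed to 2.89 and 0.91, with 10 of 14 listed at 0 after LPS, and T and NK cell genes to 6.84 and 1.65, with Cd3e, Lck and Ncr1 listed at 0 in both. These sums moved with the group. Ppbp and Pf4 are themselves on the platelet list, and Ear1, Ear2 and Ear6 on the eosinophil list, and the part of other cells in their values was not tested.

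Monocyte markers are given as well, since monocytes also express azurophil genes. The FPKM of 14 monocyte genes summed to 1139 in naive neutrophils and 1232 after LPS, against 6574.5 to 9172 in the monocyte libraries, and 2 of 9 compared were higher and 2 lower. Most of the sum in either neutrophil library was Lgals3, the galectin 3 gene, at 452 and 614, and Psap, the prosaposin gene, at 468 and 413. Ccr2, the defining chemokine receptor of these monocytes, had 0.99 in naive neutrophils and 1.13 after LPS, Fn1 had 0.59 and 0.63, and Cx3cr1 had 0.11 and 0.08. Csf1r was lower after LPS, as was Mpeg1, perforin 2, at 42.8 against 115. Ctss and F13a1 were higher, the latter at 10.7 against 3.87. Prtn3 and Mpo had 326 and 119 after LPS, where Venus- monocytes after LPS had 801 and 385. The part of monocytes in the azurophil values was not tested.

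**Figure D4:**
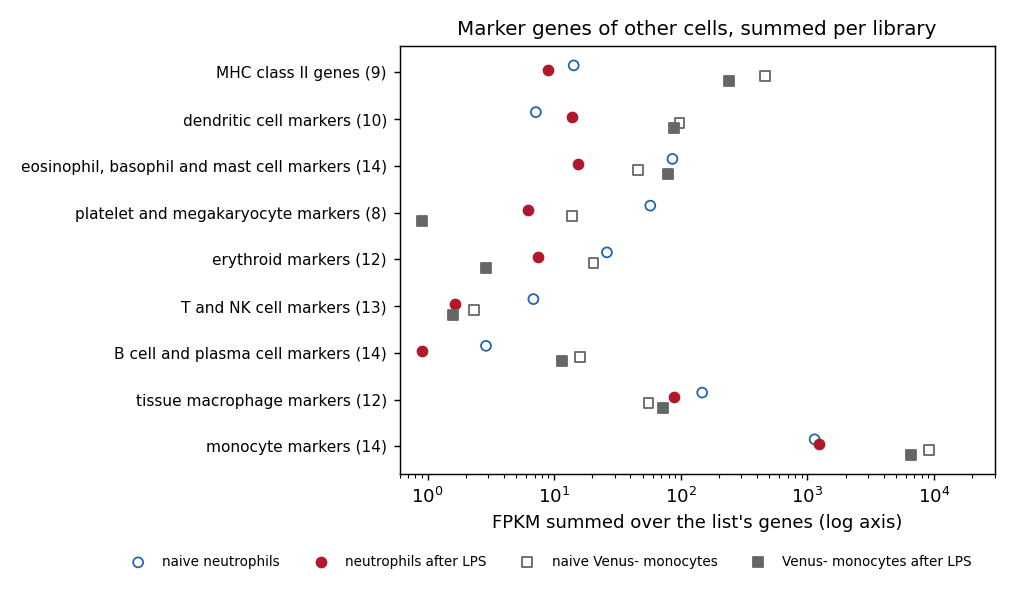
FPKM summed over the marker genes of 9 cell types or gene groups in the neutrophil and Venus- monocyte libraries, on a log axis, with the number of genes in brackets and 1 point per library. Platelet genes lie at 57.4 in naive neutrophils and 6.15 after LPS, eosinophil, basophil and mast cell genes at 85.8 and 15.3, and monocyte genes at 1139 and 1232.

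The response of the neutrophils was set beside that of Venus- Ly6Chi monocytes, sorted as Ly6C+CD115+Venus- cells from the marrow of LPS-treated and untreated mice, in the same series. Whether the cell types came from the same mice is unknown here. No library is shared between the comparisons. In the monocytes 276 of 10635 genes were at least 2-fold higher, which is 2.6%, and 465 were lower, which is 4.37%. Over 9026 genes in both comparisons, the differences had a Pearson r of 0.495 and a Spearman rho of 0.54, across genes that are not independent replicates and share the length scaling of their values. Of the 766 genes higher in neutrophils 14.2% were higher in monocytes too, and these 109 genes were 52.4% of the 208 higher in monocytes. Of the 363 lower in neutrophils 26.2% were lower in monocytes, 95 genes, or 29.2% of the 325 lower there. Opposite directions were found for 13 genes higher in neutrophils and lower in monocytes and for 10 genes the other way.

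The gene lists were set side by side, without a test. ER genes had medians of 1.70 in neutrophils and 0.65 in monocytes, where 10 of 32 were at least 2-fold higher. DNA replication genes had medians of 1.22 and 0.84, with 10 of 35 higher in monocytes. Proteasome genes had 0.85 and 0.67, with 0 of 31 higher in monocytes, and genes of oxidative phosphorylation had 0.66 and 0.54, with 1 of 32 higher there. The ribosomal protein genes had medians of 1.29 and 0.27, with 1 of 30 higher in monocytes. Azurophil genes had 3.31 in neutrophils and 0.35 in monocytes, where Mpo was lower after LPS, at 385 against 910.3, as was Elane, at 268 against 609. The median of the interferon-stimulated genes was 0.69 in neutrophils and -0.36 in monocytes, where 2 of 37 were higher and 5 lower. Specific granule genes had 0.26 and, in the Venus- monocytes, -0.94. List medians were not taken for Venus+ monocytes. There after LPS Ngp had 387 and Camp 103, against 113.3 and 39.6 in naive monocytes, while Cd177 had 35.5 against 112.7. Some acute-phase genes were higher in both comparisons, such as Saa3 at 133 against 0.93 and Socs3 at 13.5 against 0.91 in Venus- monocytes. The differences between the cell types were not tested, as each comparison has 1 library per condition.

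**Figure D5:**
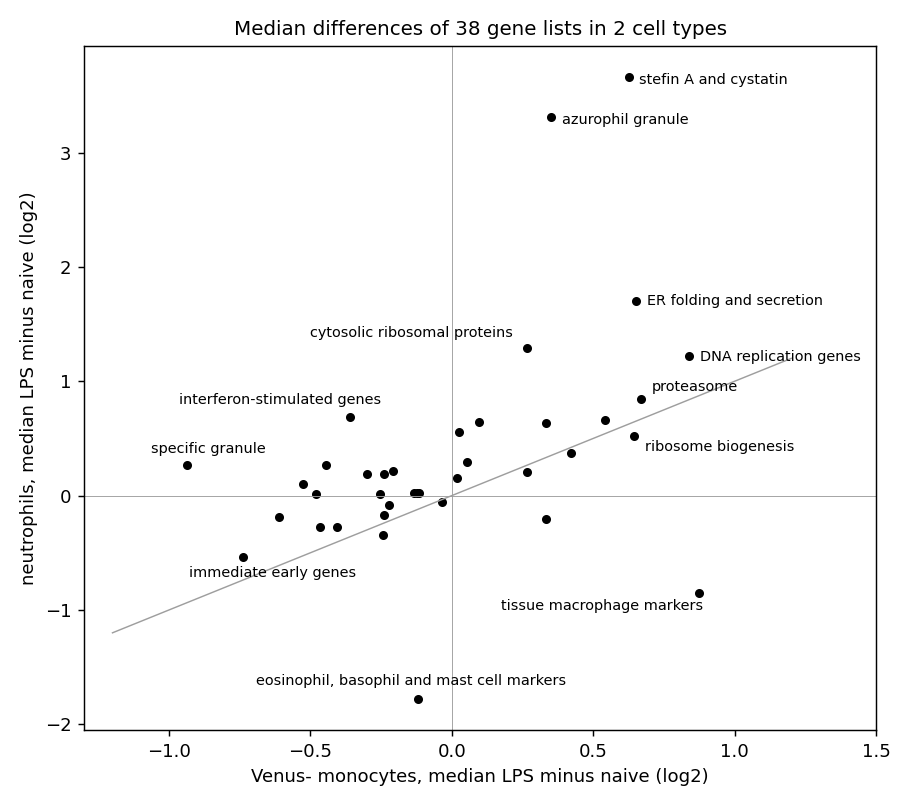
Median difference of log2(FPKM + 1), LPS minus naive, of 38 gene lists with at least 5 genes compared in each cell type, with Venus- monocytes on the horizontal and neutrophils on the vertical axis, 1 point per list and the line of equal values in grey. Stefin (3.66 against 0.63) and azurophil genes (3.31 against 0.35) lie far above the line, while replication, proteasome and ER genes are above 0 in both.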

How the data were processed

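The data are gene tables of 5 libraries of sorted marrow cells, of which the 2 neutrophil libraries were compared here, and the Venus- monocyte libraries beside them. The authors deposited FPKM values, scaled by transcript length and library size. The build mm9 and the tools Cufflinks 2.1.1 and TopHat2 2.0.8 are listed in the processing notes of the submitters. Annotation, options and read totals: not given in the sources used here. Groups come from the sample labels.

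Differences of log2(FPKM + 1) were taken where the larger FPKM was 1 or more, without 27 short RNA symbols at that level and 43 genes that 1 library lists at 0. A 2-fold difference was counted, and no count model or test was used. The genes and 46 gene lists were chosen with earlier results of these data known. Of 918 list entries 914 matched a symbol, 15 of them under another name. Named were the 15 largest increases and the 15 largest decreases at an FPKM of 10 or more, and per list up to 4 genes of largest difference and 2 of largest mean, with Mpo, Elane, Stfa2, Retnlg and Chi3l3. Other list members were named after their values had been seen. Not all genes of the rule are printed. Relative depth was read from low values with GENCODE transcript lengths, which gave the LPS library 82.9% of the naive depth. Motifs were searched in RefSeq promoters, 250 bases before the start, and the ER stress element was added after the values were seen. The steps used Python 3.11.15 with numpy 2.4.6, pandas 2.3.3, scipy 1.17.1, matplotlib 3.10.9 and Biopython 1.88 and were tested on simulated data. Alternatives were another pseudocount, other filters, rescaling to TPM, median-of-ratios scaling, leaving out the most abundant genes, a 4-fold threshold, keeping the left-out genes and, chosen after seeing the data, summing the stefin cluster. Some items are not reported here.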

Additional observations from a re-analysis of the deposited data

Results flagged for a closer look

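Several genes differed in opposite directions between the cell types, on the log2(FPKM + 1) scale, LPS minus naive, with 1 library per condition, so that the difference between neutrophils and Venus- monocytes was not tested. Higher in neutrophils and lower in monocytes were Fam20c, at 5.21 and -1.06, Elane, at 3.57 and -1.18, Mpo, at 3.48 and -1.24, and Ifitm6, at 1.83 and -1.37. In Venus+ monocytes after LPS, Fam20c, Elane, Mpo and Ifitm6 had an FPKM of 11.4, 312, 282 and 302. Naive monocytes had 12.7, 609, 910.3 and 391. Lower in neutrophils and higher in monocytes were Ear1, at -3.09 and 1.33, Ear6, at -2.09 and 2.65, Prg2, at -1.78 and 4.55, and Alox15, at -1.61 and 1.59. In Venus+ monocytes after LPS, Prg2 was listed at 0 and Alox15 had an FPKM of 0.09, against 0.24 and 0.14 in naive monocytes. Ear1 and Ear6 had 6.79 and 2.63 in Venus+ monocytes, against 3.79 and 0.70 in naive ones. In neutrophils Ear6, Prg2 and Alox15 had at most 5.22. Ear1, Ear6 and Prg2 are on the eosinophil list, and the part of other cells in these values was not tested. The complement genes C1qa, at -1.19 and 1.89, C1qb, at -1.4 and 3.74, and C1qc, at -1.56 and 2.32, were also lower in neutrophils and higher in monocytes. The median of the tissue macrophage markers was -0.855 over 10 genes in neutrophils and 0.875 over 7 genes in monocytes, so that the genes are not all the same.

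Values above 10 appeared among genes left out of the comparison because the naive neutrophil library lists them at 0. After LPS the FPKM of Nos2, the inducible nitric oxide synthase, was 16.6, against at most 0.50 in the monocyte libraries. That of Gchfr, a regulator of tetrahydrobiopterin synthesis, was 13.9, that of Gpr15, a homing receptor, 11.7 and that of Dmkn 13.4. The septin gene written 7-Sep had 64.9, and as it had 76.0 to 102 in the monocyte libraries the listed 0 can be a failed estimate.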

How the results depend on the processing

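Alternatives were run for 34 of the genes named and for the list medians, and of those past 2-fold none changed sign. The count of lower genes, 480, became 827 with a pseudocount of 0.1 and 1173 as TPM without the 50 most abundant genes. At 4-fold 144 genes were higher and 67 lower. The azurophil median, 3.31, was 2.14 without a filter on low values. The stefin and cystatin median, 3.66, was 2.93 without that filter, 2.81 as TPM and 1.38 as TPM without the 50 most abundant genes. The causes were not tested. Of 233 alternative values of these genes 208 moved by less than 1.5-fold and 25 by more, 14 of these with the pseudocount of 0.1. Of 42 list medians 9 changed sign with the scaling, among them those of LPS sensing, cytokine receptors and NADPH oxidase. No paired analysis was possible because each group has 1 library. Without replicates, the precision of a value rests on its depth, and an FPKM of 1 stands for about 15 to 18 fragments of a 2 kb transcript.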
